A study of Mus musculus with 10 samples.

Results

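The acute phase proteins described here are 10 secreted proteins of the liver: the serum amyloids A Saa1, Saa2 and Saa4, haptoglobin (Hp), hemopexin (Hpx), the orosomucoids Orm1 and Orm2, lipocalin 2 (Lcn2), amyloid P component (Apcs) and Itih4, an inter-alpha-trypsin inhibitor heavy chain. They were chosen by name, and all 10 (listed as saa1, saa2, saa4, hp, hpx, orm1, orm2, lcn2, apcs and itih4) were present among the 14812 gene entries of the series. Their transcripts were counted in 18378 single hepatocytes, the main cells of the liver parenchyma, in 10 libraries, each a 10x Chromium preparation that tags the 3' end (kit version 2). The libraries came from adult male C57BL/6 mice on ordinary chow with free access. The mice were anaesthetised with ketamine and xylazine, their livers were perfused with collagenase, and hepatocytes were then enriched on a Percoll gradient. Groups were zeitgeber times (ZT, hours from lights on by convention): ZT0 with 3 libraries (A, B and C), ZT6 with 2 (A and B), ZT12 with 3 (A, B and C) and ZT18 with 2 (A and B). All groups share strain, sex, diet and the labelled age of 3 months, and no group was given an inflammatory stimulus. Because the number of mice behind a library is not in the labels, p-values measure only the spread between these libraries, which may be in part technical.

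In the acute phase response, cytokines released during infection or injury reach the hepatocyte, which then changes the set of plasma proteins it secretes. Interleukin-6 acts through its receptor, JAK kinases and STAT3, interleukin-1 acts through NF-kB, and C/EBP factors act with both at many target promoters. Positive acute phase proteins increase in plasma during inflammation and negative ones, such as albumin, decrease. Saa1 and Saa2 are strongly induced and travel with high-density lipoprotein, while Saa4 is known as the constitutive member of the family. Hp binds free haemoglobin and Hpx binds free haem. Orm1, Orm2 and Lcn2 are lipocalins, small carriers of lipophilic ligands, and Lcn2 withholds iron from bacteria by binding their siderophores. Apcs is a pentraxin and a major acute phase protein in the mouse. The liver lobule is also organised in space, since blood enters at the portal side and leaves at the central vein, and hepatocytes along this axis differ in function.

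The 4 Saa loci lie together on chromosome 7 of GRCm38, the mouse assembly also called mm10, according to GENCODE M21. Saa1 spans chr7:46740497-46742980 on the minus strand and Saa2 spans chr7:46751790-46754313 on the plus strand. Saa4 lies at chr7:46727998-46732603 on the minus strand, and the non-member Saa3 at chr7:46711998-46715700 on the same strand. Orm1 (chr4:63344560-63348163) and Orm2 (chr4:63362449-63365878) are neighbours on the plus strand of chromosome 4, with Orm3 (chr4:63356162-63359511) between them. Hpx is also on chromosome 7 (chr7:105591613-105600137, minus strand), Hp is on chromosome 8 (chr8:109575128-109579172, minus strand) and Lcn2 is on chromosome 2 (chr2:32384633-32388252, minus strand). Apcs is on chromosome 1 (chr1:172893961-172895041, minus strand) and Itih4 on chromosome 14 (chr14:30886476-30902353, plus strand). All of these are annotated as protein-coding genes.

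Copies of these genes are close enough in sequence to share reads. Over the last 300 bases of their annotated transcripts, where a 3' kit reads, Saa1 and Saa2 were identical at 94.3% of aligned positions, Orm1 and Orm2 at 97.7%, and Saa1 and Saa4 at 62.4%. The split of molecules between Saa1 and Saa2, and among the Orm genes, is therefore uncertain. Saa1 and Saa2 are summed for the cells rich in them and for likeness across libraries. Elsewhere, as in the tests of time and zone, each copy is given alone, and differences between copies carry that uncertainty. Upstream windows from RefSeq (GRCm38.p6, bases 250 to 51 before the annotated start) matched 8 of the 10 members. RefSeq starts differ from the GENCODE ends given above for some genes, and the Lcn2 window lies inside the GENCODE span of Lcn2. The windows of 4 members are shown 5' to 3' on the gene's strand. Saa1 and Saa2 are shown because they are near copies that varied together between cells, Saa4 because it belongs to the same family and did not, and Orm2 because it was enriched in the cells rich in Saa1 and Saa2. Capitals mark matches to TTNNGNAA, a consensus of C/EBP factors, or to its reverse complement TTNCNNAA.
Saa1: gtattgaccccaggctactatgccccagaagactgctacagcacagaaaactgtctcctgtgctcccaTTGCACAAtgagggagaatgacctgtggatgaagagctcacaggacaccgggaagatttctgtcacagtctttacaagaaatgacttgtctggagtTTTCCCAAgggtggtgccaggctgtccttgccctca
Saa2: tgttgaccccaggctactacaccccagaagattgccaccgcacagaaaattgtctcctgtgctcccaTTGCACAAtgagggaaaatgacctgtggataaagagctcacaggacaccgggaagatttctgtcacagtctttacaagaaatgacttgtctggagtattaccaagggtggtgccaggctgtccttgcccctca
Saa4: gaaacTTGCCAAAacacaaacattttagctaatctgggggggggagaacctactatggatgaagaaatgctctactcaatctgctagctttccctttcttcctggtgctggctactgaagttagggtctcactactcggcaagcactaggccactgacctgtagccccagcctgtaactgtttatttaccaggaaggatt
Orm2: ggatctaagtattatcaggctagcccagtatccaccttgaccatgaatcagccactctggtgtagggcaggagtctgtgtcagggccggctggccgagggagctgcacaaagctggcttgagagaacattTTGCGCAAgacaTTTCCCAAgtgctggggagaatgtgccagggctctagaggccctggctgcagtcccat
The Saa1 window is at chr7:46743031-46743230, the Saa2 window at chr7:46751583-46751782, the Saa4 window at chr7:46732654-46732853 and the Orm2 window at chr4:63362199-63362398. Saa1 and Saa2 were identical at 188 of 199 aligned positions (94.5%), and Saa1 and Saa4 at 67.9%. The C/EBP letters were found in 6 of 8 member windows (Saa1, Saa2, Saa4, Orm2, Hpx and Lcn2) and in 32.29% of all 32851 RefSeq windows of that length. The NF-kB consensus was found in 0 of 8 member windows and 1.05% of all, and the STAT letters TTCNNNGAA in 1 of 8 (Apcs) and 5.76% of all. CTGGGAA, a type of interleukin-6 element, was in 1 of 8 windows (Apcs) and 7.22% of all. Both strands were searched and no match overlapped a match to another of these motifs. A match is a description of the letters and not of a bound site.

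The libraries held 1454623 (ZT12A) to 7144803 UMIs (ZT12B), that is distinct tagged molecules, and the median cell held 1588 to 2662. Cells held 1048 to 10001 UMIs and no cell column was repeated between libraries. Hepatocyte markers were high in every library (8 genes summing to 45600 to 80500 CPM, counts per 1000000 UMIs of the library), while 10 macrophage markers summed to at most 6.81 CPM, 6 neutrophil markers to at most 7.84 CPM and 7 lymphocyte markers to at most 0.314 CPM. Among the macrophage markers Clec4f, Csf1r, C1qa, C1qb and C1qc were at 0 in every library, as were Cd3e and Cd79a among those of lymphocytes. Haemoglobin and other erythroid transcripts summed to 361 CPM in ZT18B, where 1 cell held 448 of 527 Hbb-bs UMIs, to 99.0 CPM in ZT18A and to at most 108 CPM in the other libraries. Outside ZT18B, Hbb-bs and Hba-a1 gave few UMIs (4 and 3 in ZT0A, 34 and 10 in ZT0B). The sums there came mostly from the other erythroid genes. The pericentral share of 16 landmark genes' UMIs was 60.55% to 83.52%, and was highest in ZT0C and ZT12C (81.01%). Both ZT18 libraries, and no other, carry a sample index of column 4 in the labels, so that time and index cannot be told apart for ZT18. CPM counts molecules tagged at the 3' end and is not divided by transcript length.

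Across the day, none of the 10 members had a 24-h rhythm that passed the test, while Saa1, Saa2, Hp, Lcn2 and Apcs were each lower in both ZT18 libraries than in any of the other 8. Of 8908 genes tested, 458 had a rhythm (5.14%, edgeR quasi-likelihood test, Benjamini-Hochberg adjusted p below 0.05), and 0 of 10 members did. At an unadjusted threshold of 0.05, 1 member (Orm2) passed, against 1816 of all genes, and DESeq2 also called 0 members. The lowest adjusted p among members was 0.218, for Orm2. The median log2 amplitude was 0.43 over the members and 0.25 over all genes. Between ZT18 and ZT6 the groups did not overlap for 9 of 10 members, 7 lower and 2 higher (Saa4 and Orm2), against 62.0% of 8907 genes (36.9% lower and 25.1% higher). The 5 members below all other libraries at ZT18 compare with 7.44% of 8907 genes lower there by the same criterion, which was chosen after the values were seen. Fewer cells with a transcript and less transcript per cell cannot be told apart in these sums.

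**Figure D1:**
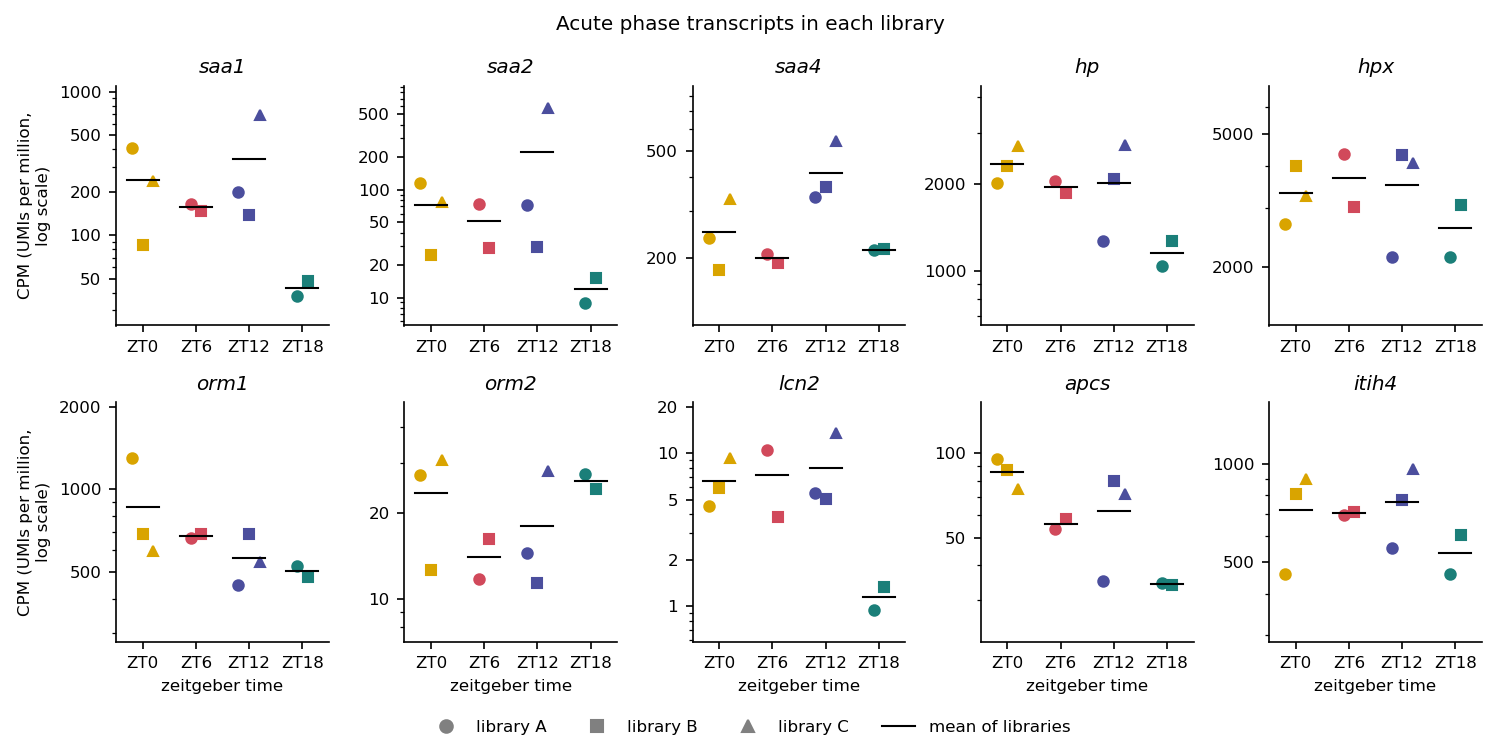
Level of each acute phase transcript in each library, as CPM on a log axis, by zeitgeber time; each point is 1 library (circle A, square B, triangle C) and each bar the mean of the libraries at that time. Saa1, Saa2, Hp, Lcn2 and Apcs lie lowest at ZT18, and ZT12C has the highest Saa1, Saa2, Saa4, Hp, Lcn2 and Itih4.

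Saa1 and Saa2, the inducible serum amyloids A, varied most between libraries. Saa1 was at 406, 85.6 and 239 CPM in ZT0A, B and C, 166 and 147 at ZT6, 201, 139 and 685 at ZT12, and 37.7 and 48.5 at ZT18. Saa2 was at 115, 24.97 and 77.5 CPM at ZT0, 73.3 and 28.6 at ZT6, 71.5, 29.5 and 573 at ZT12, and 8.80 and 15.1 at ZT18. ZT12C was highest and ZT18A lowest for both, a ratio of 18.2 for Saa1 and 65.1 for Saa2. Libraries of 1 time thus differed several-fold: the ZT12 mean of Saa1 was 342 ± 299 CPM (SD, n = 3) and the ZT0 mean 244 ± 160 CPM (SD, n = 3). The log2 difference of ZT12 from ZT0 was 0.26 ± 0.53 (SE) for Saa1 and 1.38 ± 0.79 for Saa2, with edgeR adjusted p of 0.872 and 0.435, and both turned negative, to -0.67 and -0.72, without ZT12C. The log2 difference of ZT18 from ZT6 was -1.78 ± 0.69 for Saa1 (adjusted p = 0.172) and -2.0 ± 1.08 for Saa2 (adjusted p = 0.335), with both ZT18 libraries below both ZT6 libraries. Saa2 made up 16.3% (ZT6B) to 45.55% (ZT12C) of the UMIs of both genes, the split that shared reads make uncertain.

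Saa4, the constitutive family member, followed another course. It was at 238, 181 and 333 CPM at ZT0, 208 and 192 at ZT6, 337, 366 and 543 at ZT12, and 214 and 217 at ZT18. The 3 ZT12 libraries were all above the 3 ZT0 libraries, as for 13.6% of 8907 genes, and the other 9 members overlapped. The log2 difference was 0.58 ± 0.23 (edgeR adjusted p = 0.229), so that it did not pass the test. With the column of the sample index as a block, its 24-h rhythm passed (log2 amplitude 0.51, edgeR adjusted p = 0.0285). Without the block the values were 0.30 and 0.413. Both ZT18 libraries, and no other, carry column 4. The block therefore takes up ZT18, and the rhythm is fitted from ZT0, ZT6 and ZT12 alone.

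Hp and Hpx, which bind haemoglobin and haem released from red cells, were the members with the most UMIs. Hp was at 2012, 2304 and 2692 CPM at ZT0, 2050.0 and 1856 at ZT6, 1264, 2070.0 and 2719 at ZT12, and 1035 and 1263 at ZT18. The ZT18 libraries lay 1.61-fold below those of ZT6 in the fit, with an adjusted p of 0.268. ZT12A, the library with the fewest UMIs, lay at 1264 CPM, next to the higher ZT18 library. Hpx was at 2688, 4008 and 3254 CPM at ZT0, 4331 and 3022 at ZT6, 2139, 4308 and 4070.0 at ZT12, and 2140.0 and 3067 at ZT18, so that the groups overlapped in both comparisons. Its log2 difference was -0.06 ± 0.31 between ZT12 and ZT0 (adjusted p = 0.951) and -0.41 ± 0.38 between ZT18 and ZT6 (adjusted p = 0.599).

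Neither Orm1 nor Orm2 passed a test of time. Orm1 was at 1299, 689 and 599 CPM at ZT0, 668 and 690 at ZT6, 448, 691 and 547 at ZT12, and 528 and 480 at ZT18, with ZT0A alone far above the rest. Its ZT12 to ZT0 difference of -0.79 ± 0.31 on the log2 scale did not pass (edgeR adjusted p = 0.238) and was -0.28 without ZT0A. Orm2, whose UMIs may in part be reads of Orm1, was at 27.2, 12.6 and 30.6 CPM at ZT0, 11.8 and 16.2 at ZT6, 14.4, 11.3 and 28.1 at ZT12, and 27.35 and 24.25 at ZT18. It was therefore higher in both ZT18 libraries than in both ZT6 libraries (log2 difference 0.98 ± 0.43, adjusted p = 0.226). Orm1 had -0.36 ± 0.38 (adjusted p = 0.658), and the difference between the genes was not tested. With the pericentral share of landmark UMIs as a covariate, Orm2 was called between these times (1.57, adjusted p = 0.0178).

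Lcn2, the siderophore-binding lipocalin, was scarce: 262 UMIs in all. It was at 4.54, 5.95 and 9.29 CPM at ZT0, 10.6 and 3.86 at ZT6, 5.50, 5.04 and 13.6 at ZT12, and 0.943 and 1.35 at ZT18, the last 2 from 3 and 5 UMIs. Lcn2 fell by 2.60 ± 0.65 on the log2 scale from ZT6 to ZT18 (edgeR adjusted p = 0.0419), as the only member of 10 called in that comparison, in which 3.79% of all genes were called and 1.45% called lower. The call was lost without any single library of those times, with adjusted p from 0.053 (without ZT6B) to 0.392 (without ZT6A), and also without ZT12A (0.057), and it rests on 2 libraries per time. Leaving out the cells rich in Saa1 and Saa2 gave -2.51 with an adjusted p of 0.059, and the pericentral share as a covariate gave -2.39 with 0.065.

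Apcs, the pentraxin, was at 95.5, 87.2 and 74.8 CPM at ZT0, 53.6 and 58.3 at ZT6, 35.1, 79.6 and 71.8 at ZT12, and 34.3 and 33.95 at ZT18. It was the member nearest the threshold in the test of any difference among the 4 times (edgeR adjusted p = 0.0527), in which 6.58% of all genes and 0 of 10 members were called. Next in that test were Lcn2 (0.070), Saa4 (0.080) and Saa1 (0.080), and 6 of 10 members were below 0.05 before adjustment, against 2007 of 8908 genes. With the letter of the library as a replicate block, Apcs (0.0257) and Lcn2 (0.031) passed, although only ZT0 and ZT12 have the 3 pairs by which the letters were judged. DESeq2 called 4 of 10 members in that test, but its share of all genes is not given here, so nothing is read from that count. Itih4 was at 462, 809 and 898 CPM at ZT0, 697 and 713 at ZT6, 553, 776 and 961 at ZT12, and 460 and 606 at ZT18, with overlapping ZT12 and ZT0 groups (log2 difference -0.06 ± 0.26, adjusted p = 0.947). Between ZT12 and ZT0, 0 of 10 members and 3.44% of all genes were called, with 3 members below 0.05 before adjustment against 1385 genes, and DESeq2 also called 0 members. With the library letter as a block, 0 of 10 members and 4.74% of 8886 genes were called. That fit held the ZT0 and ZT12 libraries alone.

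Other genes of the acute phase were mostly not called for time either. Of 30 further positive acute phase genes, 26 were tested and 2 had a rhythm, the metallothioneins Mt1 and Mt2, which bind zinc. Mean Mt1 was 42.2 ± 18.8 CPM in the ZT0 libraries, 286 ± 22.3 in those of ZT6, 411 ± 203 in those of ZT12 and 6.71 ± 1.94 in those of ZT18 (SD, n = 3, 2, 3 and 2). Its log2 amplitude was 2.93 with a peak 8.2 h after ZT0 (edgeR adjusted p = 0.00382), and Mt2 peaked at 8.7 h with an amplitude of 2.74 (adjusted p = 0.0074). Of 14 negative acute phase genes, 0 were called in any of the 4 tests of time.

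Among 26 tested genes of cytokine signalling and hepatocyte transcription factors, few were called for time. Il6ra, the interleukin-6 receptor, rose, with 26.6 ± 11.8 CPM in the ZT0 libraries and 90.0 ± 13.8 in those of ZT12 (SD, n = 3 each), a log2 difference of 1.62 ± 0.29 (edgeR adjusted p = 0.00582). Foxo1, a transcription factor restrained by insulin, rose by 1.28 ± 0.19 between the same times (adjusted p = 0.00153). Il1rap, the accessory chain of the interleukin-1 receptor, was higher at ZT18 than at ZT6 (1.15 ± 0.30, adjusted p = 0.0485). Socs3, an inhibitor of interleukin-6 signalling, differed among the 4 times (adjusted p = 0.0439) and was highest at ZT6, with 49.1 ± 14.8 CPM (SD, n = 2) against 8.60 ± 5.59 at ZT0 (n = 3). Among 5 tested binding partners and receptors of these proteins, Hmox2, a haem oxygenase, was lower at ZT18 than at ZT6 (-1.23 ± 0.26, adjusted p = 0.0208).

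Position in the lobule separated the members, with 8 of 10 higher on the periportal side. Cells of each library were ordered by 16 landmark genes, none of them a member, and both ends of the order, each 1 of 3 equal parts, were compared with the library as a block. The periportal side was higher for Hpx, Saa2, Saa1, Itih4, Orm1, Lcn2, Hp and Orm2, against 24.6% of 8907 genes called in either direction, 11.8% higher and 12.8% lower. The median log2 difference was 0.68 over the 10 members and -0.01 over all genes. All 15 of 15 zonated genes that were not used for the order were called on their known side. The landmarks fix the order of the cells, and position is known only as far as they give it: within a library, the odd and the even landmarks gave scores with r = 0.683 to 0.847 over cells.

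**Figure D2:**
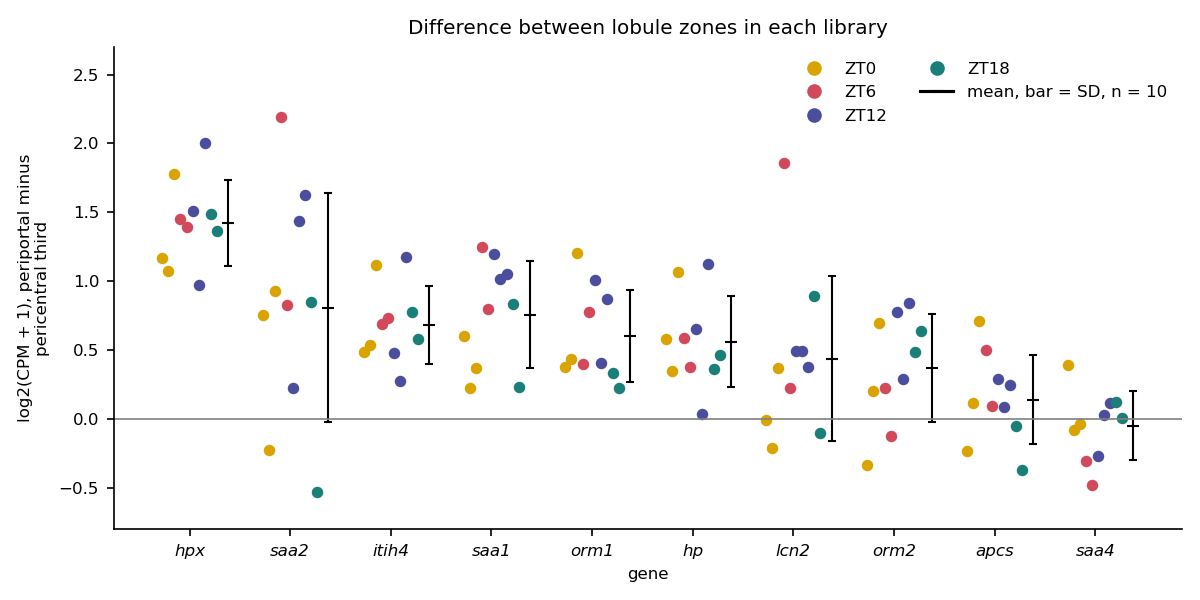
Difference between the periportal and the pericentral end of the cell order in each library, on the log2(CPM + 1) scale; each point is 1 library, coloured by time, and bars give the mean and SD of 10 libraries. Hpx lies above 0.97 in all 10 libraries, while Saa4 lies on both sides of 0.

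Hpx had the steepest difference of the 10. It ranged from 1060.0 to 2815 CPM in the pericentral ends (median 1654) and from 2980.0 to 6686 CPM in the periportal ends (median 4871), without overlap. The periportal end was higher in 10 of 10 libraries, by 0.97 to 2.0 on the log2(CPM + 1) scale, and the fitted difference was 1.52 ± 0.08 (SE, edgeR adjusted p = 5.4e-17). Hp, the haemoglobin binder, differed less: 900.2 to 2016 CPM in the pericentral ends and 1159 to 3706 CPM in the periportal ones. The fitted difference of Hp was 0.66 ± 0.08 (adjusted p = 4.91e-08), again in 10 of 10 libraries, with 0.04 in ZT12B as the smallest. Itih4 (0.78 ± 0.08, adjusted p = 5.15e-10) and Orm1 (0.69 ± 0.08, adjusted p = 6.43e-08) were likewise higher periportally in 10 of 10 libraries.

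Saa1 ranged from 30.65 to 464 CPM in the pericentral ends and from 53.3 to 964 CPM in the periportal ends. These ranges overlap because libraries differ, but within each of the 10 libraries the periportal end was higher, and the fitted difference was 0.86 ± 0.09 (edgeR adjusted p = 1.51e-09). Saa2 had a larger fitted difference, 1.14 ± 0.15 (edgeR adjusted p = 3.06e-07), although shared reads make the split between the 2 genes uncertain. Its spread was wider, from -0.53 in ZT18B to 2.19 in ZT6A on the log2(CPM + 1) scale, with 8 of 10 libraries above 0. In ZT12C Saa2 was at 272.5 CPM pericentrally and 844 CPM periportally, so that the library with high levels had them on both sides. Saa4, in contrast, had a fitted difference of 0.06 ± 0.07 (adjusted p = 0.588), a mean of -0.05 ± 0.25 on the log2(CPM + 1) scale (SD, n = 10) and 5 of 10 libraries above 0. Its fitted sign turned to -0.04 when libraries were scaled by their totals alone. The 2 lowest members were called with less margin: Lcn2 (0.68 ± 0.24, adjusted p = 0.0316, higher in 7 of 10 libraries) and Orm2 (0.42 ± 0.14, adjusted p = 0.0198, 8 of 10). Lcn2 was lost without ZT6A (0.38, adjusted p = 0.277), without ZT0C or without ZT12B, and Orm2 without ZT0C (0.32, adjusted p = 0.111) or without ZT18B. Neither was called by DESeq2 (adjusted p = 0.189 for Lcn2 and 0.067 for Orm2), and Lcn2 was not called without the cells rich in Saa1 and Saa2 (edgeR adjusted p = 0.154). Apcs just missed the threshold (0.25 ± 0.10, adjusted p = 0.059, 7 of 10 libraries) and passed it without ZT0A (0.35, adjusted p = 0.00965) or without ZT18B.

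**Figure D3:**
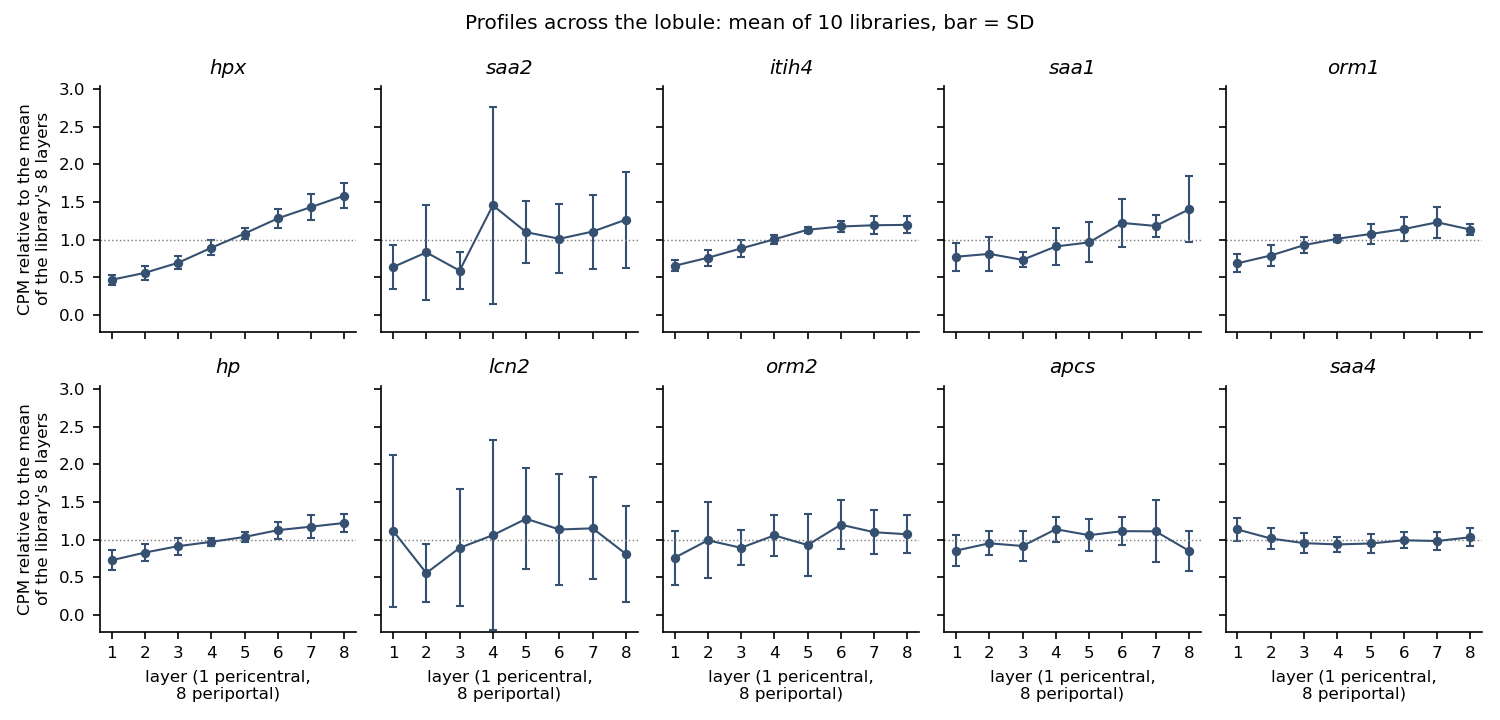
Profiles of the 10 members over 8 equal layers of the cell order, from pericentral (1) to periportal (8); points are means over 10 libraries of the CPM in a layer divided by the library's mean over its layers, and bars are SD. Hpx, Hp and Itih4 rise across the layers, Saa4 is nearly level, and Saa2 and Lcn2 have the widest bars.

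In finer layers, the members had different shapes. Hpx increased from layer to layer, from 1529 ± 475 CPM in layer 1 to 5126 ± 1202 in layer 8 (SD, n = 10), and Hp from 1362 ± 380 to 2353 ± 796 CPM. Itih4 went from 447 ± 96.2 CPM in layer 1 to 785 ± 202 in layer 5 and was 838 ± 268 in layer 8, so that most of its difference lay in the pericentral part. Orm1 was highest in layer 7 (799 ± 252 CPM) in 5 of 10 libraries. Saa1 was 160 ± 143 CPM in layer 1, 159 ± 140 in layer 3 and 290 ± 252 in layer 8. Apcs was highest in layer 4 in 3 libraries and had 0.855 of the library mean in layer 1 and 0.853 in layer 8, lower at both ends than in the middle. Saa4 was highest in layer 1 in 5 of 10 libraries, with 319 ± 124 CPM there and 257 ± 75.1 in layer 4. Lcn2 had no steady slope, with 5.99 ± 4.61 CPM in layer 1, 8.58 ± 8.65 in layer 7 and 4.23 ± 2.86 in layer 8. Relative to the library mean, Saa2 was at 0.637 in layer 1, 1.46 in layer 4 and 1.27 in layer 8. Orm2 was at 14.7 ± 8.90 CPM in layer 1, 24.3 ± 12.2 in layer 6 and 21.9 ± 10.1 in layer 8. These shapes are descriptions without a test.

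Periportal levels were also higher for most other secreted proteins of the acute phase, positive and negative. Of 25 other positive acute phase genes tested for zone, 21 were higher periportally and 0 pericentrally, with a median log2 difference of 0.63. The largest differences were those of Spp1 (3.82 ± 0.19), Mt2 (1.93 ± 0.19), Mt1 (1.19 ± 0.15), Itih3 (0.97 ± 0.09), Lbp (0.94 ± 0.10), which carries bacterial lipopolysaccharide, and the complement factor Cfb (0.93 ± 0.10), with edgeR adjusted p of 9.17e-08 or less. Of 14 negative acute phase genes, 10 were higher periportally, among them Apoa4 (2.03 ± 0.11) and Alb, albumin (1.23 ± 0.07). Another 3 were higher pericentrally: Serpina7 (-4.28 ± 0.22), which carries thyroid hormone, Serpina6 (-0.81 ± 0.10), which carries corticosteroids, and Rbp4 (-0.21 ± 0.06). Markers of cholangiocytes, which also express Spp1, summed to 0.773 to 32.5 CPM in the libraries, and their part in the Spp1 difference was not tested. The positive and the negative lists were thus both mostly periportal, with medians of 0.63 and 0.53.

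The signalling genes did not share one side. Of 26 tested, Cish (0.71 ± 0.11), Il1rap (0.51 ± 0.06) and Jak1 (0.32 ± 0.08) were higher periportally, and Cebpb (-0.72 ± 0.07), Socs2 (-0.68 ± 0.11) and Lifr (-0.42 ± 0.07) pericentrally, with edgeR adjusted p of 0.00133 or less. Cebpb encodes a C/EBP factor known to act on acute phase promoters, and its level was opposite in direction to that of the 8 called members. Il6ra, Stat3 and Socs3 were not called for zone. Of the binding partners, Ambp (0.82 ± 0.08), which shares a complex with inter-alpha-trypsin inhibitor heavy chains, Scarb1 (0.70 ± 0.12), a receptor of high-density lipoprotein, and Lrp1 (0.21 ± 0.07), the receptor of haem-bound hemopexin, were higher periportally.

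Whether the time course depended on position was tested by zone-by-time terms, and 0 of 10 members passed, against 0.0337% of 8907 genes. Saa2 came nearest (edgeR adjusted p = 0.139), followed by Saa1 (0.211), and these 2 members, with 536 of all genes, were below 0.05 before adjustment. DESeq2 called 0 members. The difference of Saa1 between zones had a mean of 0.40 ± 0.19 over the ZT0 libraries, 1.02 ± 0.32 over ZT6, 1.09 ± 0.10 over ZT12 and 0.53 ± 0.43 over ZT18 (log2(CPM + 1), SD over libraries). Without ZT0C both passed (adjusted p = 0.0456 for Saa1 and 0.00137 for Saa2), and with no filter on low genes both passed with all libraries kept (0.0432 and 1.8e-05).

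Between single cells, Saa1 and Saa2 were spread more unevenly than Hp, Hpx, Orm1, Saa4 and Itih4. With each cell thinned to 1000 UMIs, Hpx was detected in a median of 88.6% of a library's cells, Hp in 80.7%, Itih4 in 48.6%, Orm1 in 44.2%, Saa4 in 20.04%, Saa1 in 11%, Apcs in 6.29%, Saa2 in 3.11%, Orm2 in 1.82% and Lcn2 in 0.488%. Unthinned, the medians were 96.2% for Hpx, 20.4% for Saa1 and 1.14% for Lcn2. Hbb-bs, a haemoglobin transcript that hepatocytes lack and which gauges free RNA, was found in a median of 0.131% of thinned cells and in 2.41% in ZT18B. In ZT18A and ZT18B the Lcn2 shares of 0.119% and 0.168% lay below those of Hbb-bs (0.536% and 2.41%), so that no expression of Lcn2 is read from those shares. Of the 5 Lcn2 UMIs in ZT18B, 1 was in a cell rich in Saa1 and Saa2.

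The share of cells with Saa1 ranged from 2.09% in ZT18A (95% interval 1.46 to 2.89%, exact Clopper-Pearson) to 41.4% in ZT12C (38.5 to 44.3%). The variance of a member beyond counting error, divided by its squared mean, had a median over libraries of 5.63 for Saa1 (9 libraries with enough UMIs, 1.13 to 41.5) and 42.7 for Saa2 (6 libraries, 1.503 to 199). It was 0.188 for Hp, 0.377 for Hpx, 0.227 for Orm1, 0.109 for Saa4 and 0.102 for Itih4. Orm2 reached enough UMIs in 2 libraries and Lcn2 in 0. Within layers of the lobule the medians were lower for all 3 of Saa1 (3.15), Saa2 (22.7) and Hpx (0.175). The value also falls where few cells carry the spread. For Hbb-bs in ZT18B, with 448 of 527 UMIs in 1 cell, it went from 944 to 27.9. No part of the Saa1 and Saa2 spread is therefore assigned to position. Over whole libraries, the Saa1 spread was smallest in ZT12C (1.13), where 41.4% of cells had Saa1, next to ZT0A (1.14). It was largest in ZT0B, with 6.15% of cells, where a cell held 28 thinned Saa1 UMIs against a mean of 0.085. The largest Saa2 value is also of ZT0B, where a cell held 21 against a mean of 0.0301. Unthinned, the Saa1 spread was 21.6 in ZT0B and was largest in ZT6A, at 46.7. The extremes thus lean on few cells. Up to 102 UMIs of Saa1 were counted in a single cell of ZT6A, and the 1% of cells with the most Saa1 held a median of 30.0% of a library's Saa1 UMIs, against 6.09% for Hp.

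Saa1 and Saa2 were found in the same cells. Across cells, their thinned counts correlated at a median r of 0.58 (0.27 to 0.82, 6 libraries), which reads shared by the copies would also raise. The next pair was Hp and Hpx (median r of 0.26, 0.16 to 0.47, 10 libraries), both periportal. Saa4 was not correlated with Saa1 (median r of 0.02, 9 libraries). These values are descriptions, and cells of a library share its depth and its zones.

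**Figure D4:**
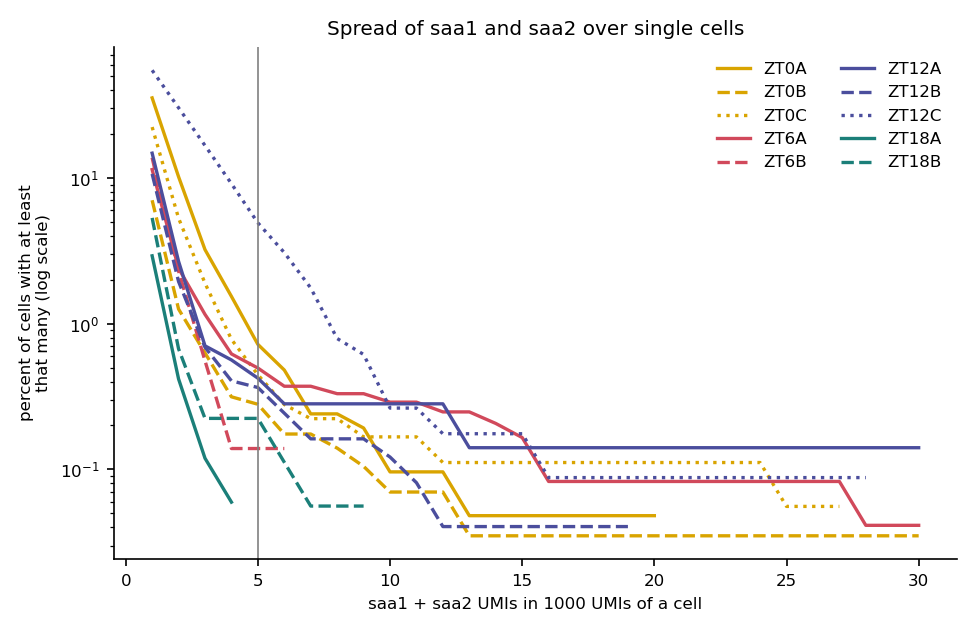
Percent of cells, on a log axis, with at least a given number of Saa1 and Saa2 UMIs among 1000 UMIs of the cell; each line is 1 library, the grey line marks 5 UMIs, and the axis ends at 30. ZT12C is shifted furthest, with 54.8% of cells at 1 UMI or more, against 35.4% in ZT0A and 2.92% in ZT18A. Other libraries have a thin tail of cells with 5 or more, except ZT18A, which has 0 such cells.

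A small set of cells held up to 33.75% of a library's Saa1 and Saa2 UMIs. Cells with 5 or more of 1000 thinned UMIs from Saa1 and Saa2, a threshold chosen after the values were seen, numbered 117 of 18378 (0.637%), and 119 cells lay at 4 or 5 UMIs. By library they were 15, 8 and 8 cells at ZT0, 12 and 2 at ZT6, 3, 9 and 56 at ZT12, and 0 and 4 at ZT18. ZT12C thus gave 56 of them, or 4.92% of its cells (95% interval 3.73 to 6.34%, exact Clopper-Pearson), and no other library exceeded 0.721%. The 0 of 1678 cells in ZT18A allow a share of up to 0.179%, the limit of 3 counts. Of the 117 cells, 83 lay in the periportal side of the middle of their library's order (70.9%), and 39 of 61 without ZT12C. Their median depth was 1607.5 against 1588 UMIs of other cells in ZT12C, but it was 2463 against 1736 in ZT12A, 3315 against 2652 in ZT0C and 1237.5 against 1634 in ZT6B. The rich cells held 33.75% of the Saa1 and Saa2 UMIs in ZT12A, 33.4% in ZT6A, 12.89% in ZT0C, 11.21% in ZT0A and 3.08% in ZT6B.

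The other 8 members were all above the level expected from the remaining cells of the same library. The share of all genes above their expected level is not given here, so nothing is read from that count. Lcn2 stood out: 49 UMIs were counted where 2.03 were expected, a ratio of 24.1 (95% interval 17.8 to 31.8, exact Poisson, counting error only), in 8 of 9 libraries with such cells. These 117 cells held 18.7% of all Lcn2 UMIs, and 24.8% of them had an Lcn2 UMI, against 1.04% of the other cells (39.3% against 0.99% without ZT12C). Without ZT12C the ratio was 49.4 for Lcn2 (35.9 to 66.3) and 7.31 for Orm2 (4.68 to 10.9). Orm2 followed with 4.07 (2.63 to 6.01), then Hp with 2.13 (2.02 to 2.25) and Hpx with 2.05 (1.96 to 2.14), each above 1 in 9 of 9 libraries for Hp and Hpx and in 6 of 9 for Orm2. Apcs had 1.82 (1.28 to 2.52), Orm1 1.63 (1.46 to 1.82), Itih4 1.34 (1.19 to 1.5) and Saa4 1.24 (1.03 to 1.48). Over 1628 genes with at least 20 expected UMIs the median ratio was 0.946, with 5% of genes above 1.33. Hp, Hpx, Orm1 and Itih4 thus lay above that level and Saa4 below it. Without ZT12C, Saa4 had 1.62 (1.27 to 2.03), above the corresponding 1.342. Lcn2, Orm2 and Apcs had fewer than 20 expected UMIs with all libraries and were not among the 1628 genes. All of the 8 members but Saa4 and Apcs are also higher on the periportal side, where most of the rich cells lay.

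**Figure D5:**
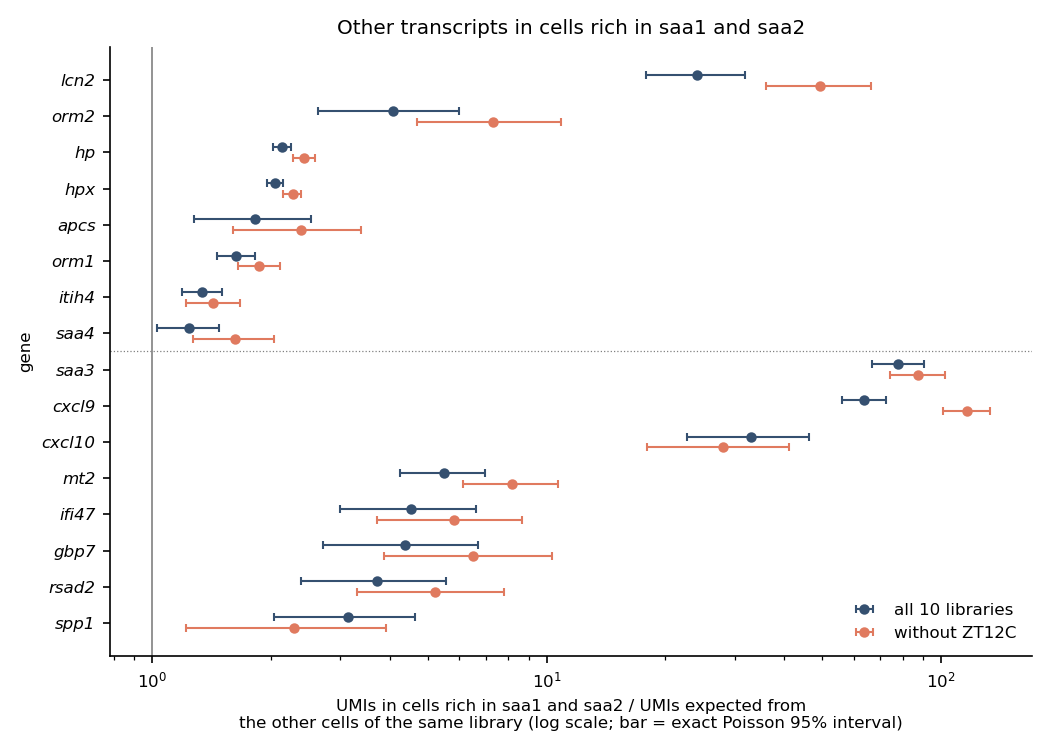
UMIs of a gene in cells rich in Saa1 and Saa2 divided by those expected from other cells of the same library, on a log axis, with exact Poisson 95% intervals; blue is all 10 libraries and orange without ZT12C. Members are above the dotted line and other genes below it. With all 10 libraries Lcn2 has the highest ratio of the members, 24.1, and Saa3 of all genes shown, 77.9; without ZT12C Cxcl9 is highest at 116.

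Other genes marked these cells as well. By a rule of at least 20 UMIs and a ratio of at least 3, 10 genes were named, of which Lcn2 and Orm2 are members. The UMIs are those in the rich cells, so a scarce gene can be named only if it is high there. How many genes had 20 UMIs there is not given here, so nothing is read from the count of members named. Saa3, the family member mainly known from macrophages and fat, had 169 UMIs against 2.17 expected (ratio 77.9, 9 of 9 libraries), and 29.9% of the rich cells had it against 1.52% of others (47.5% against 1.58% without ZT12C). The chemokines Cxcl9 (63.8, 9 of 9 libraries, and 116 without ZT12C) and Cxcl10 (33.0, 6 of 9) and the interferon-inducible Ifi47 (4.54, 8 of 9) and Gbp7 (4.38, 7 of 9) were also named, as were Mt2 (5.50, 6 of 9) and Spp1 (3.14, 3 of 9). Rsad2 (3.72) was above expectation in 1 library only. Macrophage markers gave 1 UMI in these cells (0.788 expected), and neutrophil and lymphocyte markers gave 0 UMIs (0.495 and 0.009 expected), while hepatocyte markers gave 70448 CPM against 68525 in other cells. Lbp (2.09) and the iron regulator Hamp (1.95) were above expectation too, and albumin was at 1.21. Thresholds of 3 or 10 UMIs gave 373 or 22 cells, with a ratio of 13.4 or 58.9 for Lcn2 and 2.35 or 14.6 for Orm2. Orm2 met the rule at neither, with 16 UMIs at the higher one.

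Across the 10 libraries, the genes whose log2 levels followed each of 4 members most closely were found among 4332 genes whose mean reached 20 CPM. For the sum of Saa1 and Saa2 the nearest was Nfkbia (Pearson r = 0.979, Spearman rho = 0.964), the inhibitor of NF-kB that NF-kB itself induces, followed by Ube2g1 (0.953), Sub1 (0.940), Rab11a (0.937) and Gmfb (0.916). Nfkbia was at 40.1, 21.25 and 42.9 CPM at ZT0, 31.7 and 26.7 at ZT6, 30.25, 22.5 and 91.9 at ZT12, and 12.9 and 12.7 at ZT18. Its r was 0.965 without ZT12C and 0.952 without ZT12C and ZT18A, the 2 libraries farthest from the median of Saa1 and Saa2. In the rich cells Nfkbia was at 1.38 times its expected level (0.843 to 2.13). For Hp the nearest were Pemt (r = 0.973), Nudc, Bsg, Tmem176a and Znhit1, for Orm1 Ndufa11 (0.955), Apom, 2410015m20rik, Pttg1 and Ifitm3, and for Lcn2 Atxn7l3b (0.948), Tcp11l2, Esyt2, Setd1b and Arf5. The genes were picked as the highest of 4332 on these same libraries, so the size of r is a description and no p is given.

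Over the mean profile of 8 layers the nearest genes to Hpx were mt-Co2 (r = 0.9997), Hsd17b6, Trf, mt-Co1 and Afm, to Hp Sepp1, Il1rap, Pck1 and Rarres2, and to Itih4 Aox3, Serpina1a, Etnppl, Fgb and Serpina1d. Those of Saa2 were H2-T23, Ptma, Zkscan1, Mcfd2 and Trim44, and those of Orm2 were Dsg2, Hhex, Txndc5, Mbd2 and Timm10. Those of Orm1 were Etnppl, Gls2, Ly6e, Aox3 and Acly, and those of Saa1 were Tdo2, Cib3, Ugt2b38, 1300017j02rik and Abhd2. With 8 layers made from 1 order, many periportal genes reach a high r, and no likeness is read beyond that shared slope.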

How the data were processed

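The deposited tables hold whole-number counts of UMIs per gene and cell, with gene names in lower case. Per the submitters' processing notes, Cell Ranger and the builds mm10 and hg19 were used, with no version or role given. How reads shared by near-identical genes were counted is not given in the sources used here. UMIs were summed per library, or per library and end of the cell order (1 of 3 equal parts, from 8 pericentral and 8 periportal landmarks), and fitted with edgeR 4.0.16 in R 4.3.3: TMM scaling, a mean CPM of 3 or more, quasi-likelihood tests and Benjamini-Hochberg adjustment over all genes at 0.05. The rhythm used cosine and sine terms of 24 h, and the zone test a library block. DESeq2 1.42.0 was an alternative, with other filters, scalings, cell sets and left-out libraries. Library differences between zones used log2(CPM + 1). Cells were thinned to 1000 UMIs for shares and spread, with no doublet caller. The scripts were tested on simulated data. Intervals cover counting error only.

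The ZT0 and ZT12 libraries share the letters A, B and C, and deviations from group means correlated within each pair (r = 0.284, 0.512 and 0.626 over 4341 genes, all above 0.1), so the letters were taken to pair them. Each pair also shares its index column (3, 7 and 5 for A, B and C), so that letter and index cannot be told apart there. Tests of time used no block unless one is stated. Sequences are from RefSeq (GRCm38.p6). All 10 members were named, with the called genes of each list, at most 6 by size of change, and the 5 genes of highest r for likeness, of which 1 is not reported here. The members and lists were chosen with earlier results of these data known.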

Additional observations from a re-analysis of the deposited data

Results flagged for a closer look

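The difference of Lcn2 between zones was 1.86 in ZT6A on the log2(CPM + 1) scale, far from the other 9 libraries, of which the nearest had 0.89. The gap was 0.468 of the whole range. It rests on few Lcn2 UMIs: 7 pericentral and 29 periportal in ZT6A, and 0 and 1 in ZT18A, the nearest library. How often chance gives such a gap at these counts was not tested, so nothing is read from its size. Without ZT6A the Lcn2 zone difference was no longer called (0.38, edgeR adjusted p = 0.277).

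Saa4 was lower periportally in both ZT6 libraries, with a mean zone difference of -0.393. In the ZT18 libraries its mean was 0.0652, with 0.1255 in ZT18A and 0.0049, nearly level, in ZT18B. Apcs was lower periportally in both ZT18 libraries (-0.0495 in ZT18A and -0.3727 in ZT18B), with a mean of -0.211. It was higher in all ZT6 and ZT12 libraries, with a mean of 0.242. These differences between times were not tested directly, and no share of all genes with such a pattern stands beside them. The zone-dependent rhythm gave edgeR adjusted p of 0.837 for Saa4 and 0.917 for Apcs.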

How the results depend on the processing

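Between ZT12 and ZT0, no member was called under any alternative, but directions turned. Scaling by library size alone gave 0.0804 for Hpx and 0.0793 for Itih4, and cells with at least 2000 UMIs gave 0.0193 for Hpx and -0.0458 for Lcn2. Without ZT0C and ZT12C the values were -0.716 for Saa1, -0.717 for Saa2 and -0.152 for Lcn2, and without the Saa-rich cells -0.128 for Lcn2. Leaving out 1 library gave -0.667 to 0.953 for Saa1, -0.722 to 1.98 for Saa2, -0.300 to 0.179 for Hpx, -0.421 to 0.392 for Lcn2 and -0.256 to 0.110 for Itih4. For Saa4 between zones, library size alone gave -0.0369. The cause of these changes was not tested.

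Members called for rhythm went from 0 to 1 when the index column was the block (Saa4) or the pericentral share a covariate (Orm2). The index block takes up ZT18. Between ZT18 and ZT6 the 1 call became 2 with no filter, 0 with at least 20 CPM (Lcn2 was not tested there), 0 without the top 5% of cells, 0 without Saa-rich cells and 0 to 1 without 1 library; with the pericentral share it stayed 1, with Orm2 in place of Lcn2. The replicate block gave 6 there, with 2118 genes in place of 338; these 2 pairs share only a letter (r = 0.112 over genes). Any difference among times gave 5 members with no filter, 4 with DESeq2, 2 with the replicate block, 1 with the pericentral share and 0 to 3 without 1 library. Of the 8 zone calls, 3 were made with no replicate block and 6 to 9 without 1 library. Lcn2 and Orm2 were both lost between zones with library size alone (edgeR adjusted p = 0.068 and 0.0631), DESeq2 and narrower ends of the cell order (0.254 and 0.103), Lcn2 with odd landmarks (0.194) and Orm2 with even ones (0.0611). The zone-dependent rhythm gave 2 with no filter, 1 with at least 2000 UMIs, 2 without ZT0C and ZT12C, and 0 to 2 without 1 library. Unthinned cells gave a spread of 0.326 for Saa4, 0.755 for Hp, 0.761 for Hpx, 0.563 for Orm1 and 0.420 for Itih4. The block changed no other call of a member, but Il6ra gained a rhythm (edgeR adjusted p = 0.0149 against 0.0584).

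Over all genes, 458 rhythms became 710 with no filter, 283 with at least 20 CPM, 792 with DESeq2, 231 without ZT18 and 749 with the replicate block. The 306 calls of ZT12 against ZT0 became 469 with no filter and 147 without ZT0C and ZT12C, and the 338 of ZT18 against ZT6 became 595, 199 with at least 20 CPM and 215 with at least 2000 UMIs. The 586 differences among times became 1071 with no filter, 380 with at least 20 CPM, 231 without ZT18 and 989 with the block, the 2192 zone calls 645 with no replicate block, and the 3 zone-dependent rhythms 40 with no filter and 48 without ZT0C and ZT12C. With 2 or 3 libraries per time, and 3 and 5 UMIs of Lcn2 at ZT18, small changes were not detectable.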
